A study of Mus musculus with 23 samples.

Results

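The 10 genes Tcf7l2, Lef1, Prkcd, Tnnt1, Ramp3, Plekhg1, Synpo2, Tac2, Gng8 and Slc17a6, used as markers of thalamus or habenula, were followed through RNA sequencing libraries of mouse hippocampus. They were chosen by name, with earlier results of these data known, and all 10 were found among the 45706 gene rows of the count table. The libraries came from female mice of 2 genotypes, 12 of Ins2+/+ (wild type, WT) and 11 of Ins2-/- (knockout, KO). All were labelled as hippocampus, and no treatment was named. Age, strain and how the Ins2 allele was made are not given in the sources used here. The labels do not say that the libraries came from separate animals, so the p-values below measure only the spread between these samples. Libraries are called by genotype and the number in their label, as in KO 8.

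Library totals ranged from 13792274 to 22953261 estimated counts. Ins2 had 0 counts in the 11 KO libraries together, which allows up to 0.0156 CPM (counts scaled to a common library total), and 26 counts over 7 of the 12 WT libraries. Of the 26 counts, 18 were in WT 17, and the rest came as 1 or 2 counts per library. The remaining WT libraries had 0, as did each KO library. KO 8 went against its tissue label. Slc17a7, which encodes the main vesicular glutamate transporter of hippocampal pyramidal and granule cells, stood at 5.76 CPM in KO 8 and between 787 and 1382 CPM in the other 22 libraries. The 10 dentate granule cell markers summed to 129 CPM in KO 8, against 487 to 837 CPM in WT and 401 to 797 CPM in the other KO libraries. The 15 hypothalamus markers summed to 1575 CPM in KO 8, against at most 7.01 CPM in WT and 8.71 CPM in the other KO libraries. The comparison of the genotypes is therefore given with and without KO 8, and relations to gene lists without it.

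The thalamus relays sensory and motor signals to the cortex and lies just below the hippocampus, and the habenula sits on its upper inner edge. Neurons of both regions load glutamate into vesicles largely through the transporter encoded by Slc17a6, whereas most principal neurons of the hippocampus use Slc17a7. Tcf7l2 and Lef1 encode related transcription factors that bind beta-catenin and carry Wnt signals to their target genes; Tcf7l2 is a widely used marker of postmitotic thalamic and habenular neurons. Prkcd, protein kinase C delta, labels many thalamic relay neurons, and Tac2, the precursor of neurokinin B, labels neurons of the medial habenula as well as cells elsewhere in the forebrain. In bulk tissue, fewer cells of a type and less RNA per cell cannot be told apart.

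Tcf7l2 and Lef1 were the pair of markers with the highest Pearson's r over the 22 libraries other than KO 8, and Tac2 was the marker farthest above its median in KO 8 after Slc17a6, so the 250 bases before the first listed start of these 3 genes are shown, 5′ to 3′ on the gene's strand, from RefSeq on GRCm38.p6. Capitals mark the letters CTTTGAT or CTTTGAA on either strand, a core sequence bound by this family of factors, with no overlap with another motif searched.
Tcf7l2, chr19:55741560-55741809, plus strand: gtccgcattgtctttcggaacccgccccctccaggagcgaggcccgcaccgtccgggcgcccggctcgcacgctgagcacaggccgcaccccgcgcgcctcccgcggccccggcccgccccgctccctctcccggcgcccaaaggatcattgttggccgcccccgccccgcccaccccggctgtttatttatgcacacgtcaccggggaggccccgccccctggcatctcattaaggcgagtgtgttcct
Lef1, chr3:131110047-131110296, plus strand: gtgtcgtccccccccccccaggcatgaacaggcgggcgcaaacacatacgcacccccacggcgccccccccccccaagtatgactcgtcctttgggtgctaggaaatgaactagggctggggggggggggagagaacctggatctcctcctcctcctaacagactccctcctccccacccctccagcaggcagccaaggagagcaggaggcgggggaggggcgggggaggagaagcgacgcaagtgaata
Tac2, chr10:127724228-127724477, plus strand: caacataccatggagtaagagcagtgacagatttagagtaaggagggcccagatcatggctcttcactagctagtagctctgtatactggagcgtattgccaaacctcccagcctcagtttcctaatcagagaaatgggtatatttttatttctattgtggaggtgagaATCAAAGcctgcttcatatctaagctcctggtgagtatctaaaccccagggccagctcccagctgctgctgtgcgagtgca

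The Tac2 window held CTTTGAT on the minus strand, from 81 to 75 bases before the start. It was the only match among the 16 windows listed for the 10 markers, and 7.479% of 32851 mouse windows of this length held either motif. The Tcf7l2 and Lef1 windows were rich in G and C, at 72.8% and 66.4%, and the Tac2 window was at 47.2%, against a median of 52.4% over all windows. A match describes letters in the window and is not a bound site.

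Adjusted for exon length, Prkcd was the most abundant marker and Lef1 the least. The medians over 23 libraries, in CPM per kilobase of exon, were 5.38 for Prkcd, 2.33 for Plekhg1, 2.02 for Ramp3 and 1.60 for Slc17a6. They were 1.19 for Tac2, 0.673 for Tcf7l2, 0.631 for Synpo2, 0.493 for Tnnt1, 0.279 for Gng8 and 0.272 for Lef1. Prkcd exceeded Plekhg1 in 23 of 23 libraries and Tac2 exceeded Tcf7l2 in 20. Tnnt1 exceeded Gng8 in 18. In 16 libraries each, Slc17a6 exceeded Tac2, Tcf7l2 exceeded Synpo2 and Synpo2 exceeded Tnnt1. The other neighbours changed places more often: Plekhg1 exceeded Ramp3 in 14 libraries, Ramp3 exceeded Slc17a6 in 12, and Gng8 exceeded Lef1 in 9. Slc17a6 spread the widest, from 0.184 to 46.5 CPM per kilobase. Of the 230 marker values, 19 carried decimals, all of them Lef1 (chr3:131110471-131224356 in GENCODE M21), and how reads that match several genes were counted is not given in the sources used here. An antisense gene on the opposite strand, Gm43352, lies within Lef1 and reached 0.780 CPM in KO 8. How strand was used in counting is not given in the sources used here, so reads of the 2 genes may not have been told apart.

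The 10 markers did not move as a block. A marker was counted as high in a library where its CPM was over 2 times its median of 23 libraries, which is a description with no test. KO 8 had 6 high markers (Tcf7l2, Lef1, Tnnt1, Synpo2, Tac2 and Slc17a6), where 7.7% of the 15828 genes tested passed the same fold. KO 4 had 4 (Tcf7l2, Lef1, Tnnt1 and Slc17a6), where 0.657% of genes did. WT 15 had Prkcd and Slc17a6, where 1.55% did. A further 8 libraries had 1 high marker each. It was Slc17a6 in WT 5 (0.36% of genes passed), KO 2 (1.18%), KO 13 (0.569%) and KO 16 (0.638%), Lef1 in WT 17 (4.52%) and KO 12 (5.07%), and Gng8 in WT 1 (0.366%) and WT 3 (0.171%). Gng8 was itself too low in counts to be among the genes tested. The other 12 libraries had 0. KO 8 and KO 4 were the 2 libraries with at least 3 high markers.

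**Figure D1:**
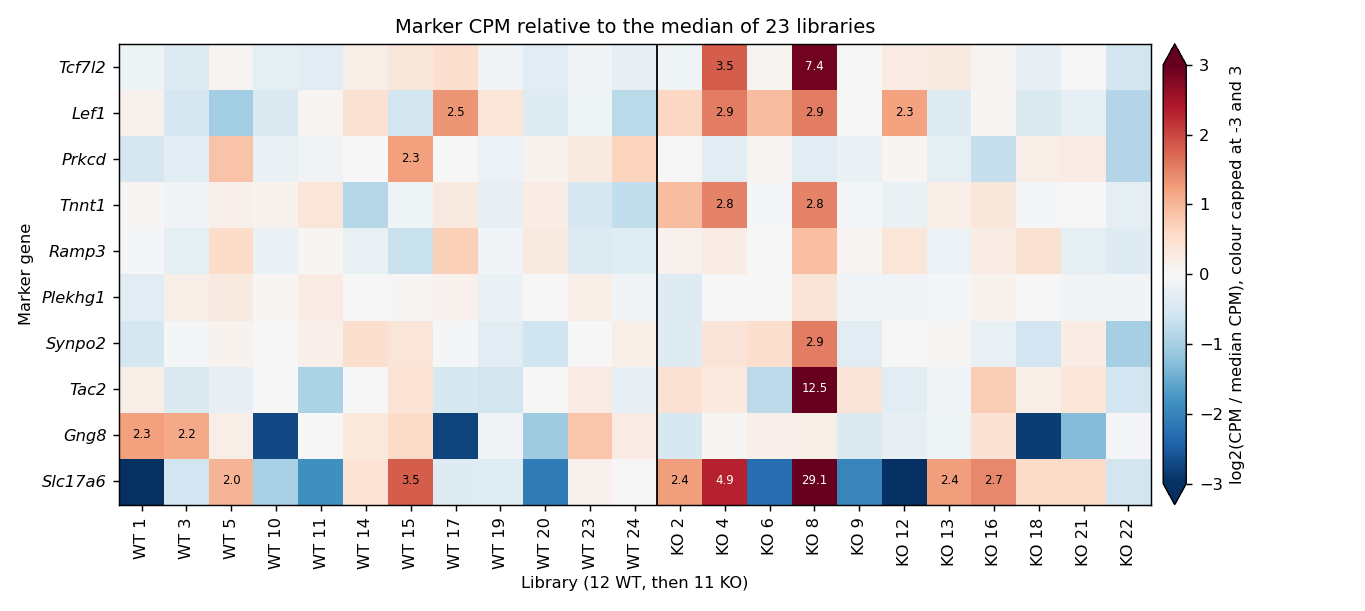
Level of each of the 10 markers (rows) in each of the 23 libraries (columns, WT then KO), as log2 of the CPM over the marker's median of 23 libraries, with colours capped at 3 in either direction. KO 8 is high for 6 markers and KO 4 for Tcf7l2, Lef1, Tnnt1 and Slc17a6, while Prkcd and Slc17a6 are high in WT 15.

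The glutamate transporter gene Slc17a6 (chr7:51622006-51671119) had the widest range. Its lowest, median and highest CPM were 0.994, 6.67 and 30.6 in WT and 1.01, 12.9 and 251 in KO. KO 8 held the highest value, 29.1 times the median of 23 libraries, followed by KO 4 at 42.6 CPM and WT 15 at 30.6 CPM. The genotypes overlapped, with 2 KO libraries above every WT library. Slc17a6 was also over 2 times the median in KO 16 at 23.3 CPM, KO 13 at 20.7 CPM, KO 2 at 20.6 CPM and WT 5 at 17.4 CPM, none of which was high for Tcf7l2. At the other end, 3 libraries were below 2 CPM: WT 1 at 0.994, KO 12 at 1.01 and KO 6 at 1.78.

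Among the Wnt-linked transcription factors, Tcf7l2 (chr19:55741820-55933654) ranged narrowly in WT, with a lowest, median and highest CPM of 4.43, 5.43 and 8.32. The KO values were 4.02, 6.23 and 43.9 CPM. KO 8 at 43.9 and KO 4 at 20.9 CPM stood above every WT library, and the remaining 9 KO libraries lay within the WT range or below it. Lef1 was lower, at 1.16, 2.0 and 5.96 CPM in WT and 1.30, 2.43 and 6.96 CPM in KO. KO 8 and KO 4 were nearly level for Lef1, at 6.96 and 6.91 CPM. WT 17 at 5.96, KO 12 at 5.47 and KO 6 at 4.51 CPM came next, and Tcf7l2 in these 3 libraries was at 8.32, 7.01 and 6.23 CPM.

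Prkcd, Ramp3 and Plekhg1 are linked to signalling at the membrane. Prkcd (chr14:30595354-30626210), a kinase activated by diacylglycerol, had a lowest, median and highest CPM of 21.2, 29.8 and 69.5 in WT and 16.2, 26.1 and 35.3 in KO. WT 15 at 69.5, WT 5 at 53.7 and WT 24 at 47.3 CPM were the highest, whereas KO 8 and KO 4 lay below the median at 23.8 and 23.9 CPM. Ramp3 (chr11:6658521-6677475) encodes a single-pass protein that joins the calcitonin family of receptors. Its values were 1.75, 2.52 and 4.60 CPM in WT and 2.11, 3.05 and 5.22 in KO, with KO 8 highest and WT 15 lowest. Plekhg1 (chr10:3740364-3967303), a guanine nucleotide exchange factor, varied least of the 10, from 16.4 to 24.6 CPM in WT and from 15.7 in KO 2 to 26.5 in KO 8.

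Of the cytoskeletal genes, Tnnt1 (chr7:4504570-4516382), slow skeletal troponin T, was at 0.597, 1.06 and 1.39 CPM in WT as lowest, median and highest, and at 0.887, 1.09 and 3.06 CPM in KO. KO 8 at 3.06, KO 4 at 3.05 and KO 2 at 2.08 CPM were above every WT library; KO 8 and KO 4 rested on 51 and 56 counts. Synpo2 (chr3:123076519-123236149), an actin-binding protein, was at 5.44, 8.27 and 11.6 CPM in WT and 4.16, 8.26 and 23.9 in KO. Only KO 8 exceeded the WT range, and KO 4 was within it at 10.9 CPM.

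The neuropeptide gene Tac2 (chr10:127724478-127731768) was at 0.848, 1.49 and 2.16 CPM in WT and 0.949, 2.01 and 20.3 in KO. KO 8 at 20.3 CPM was 12.5 times the median of 23 libraries, and KO 16 at 2.71 and KO 2 at 2.26 CPM also stood above the highest WT library. KO 4 had 2.01 CPM of Tac2, within the WT range. Gng8 (chr7:16891786-16895436), a G protein gamma subunit and a habenula marker, was near the counting limit everywhere, with 174 counts over 23 libraries and 0.0621 to 0.994 CPM in WT and 0.0593 to 0.571 CPM in KO. The highest Gng8 values were in WT 1 and WT 3 on 16 and 14 counts, and KO 8 and KO 4 had 8 counts each. A count of 0 allows up to 0.131 to 0.218 CPM per library, a limit that covers counting error only, and small differences in Gng8 were not detectable at this depth.

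**Figure D2:**
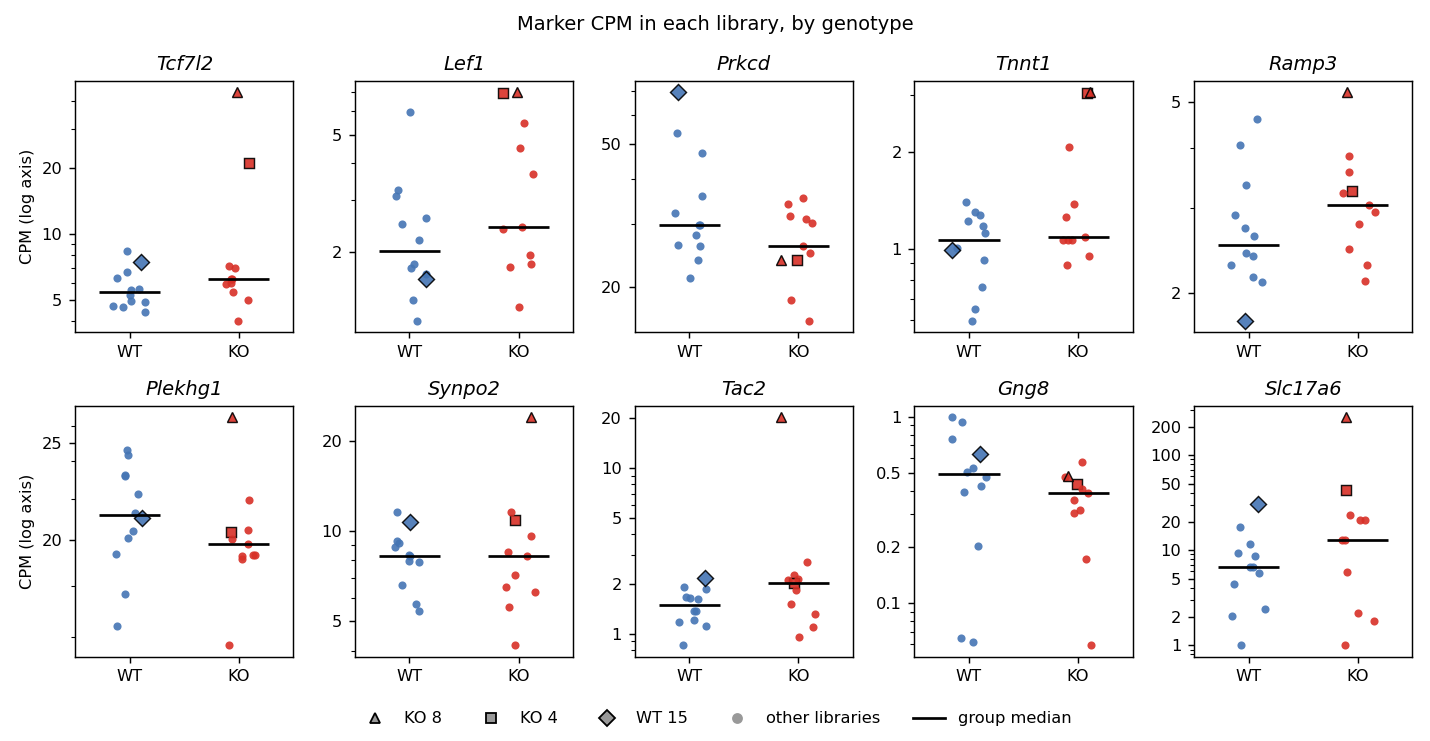
CPM of each marker in each library on a log axis, by genotype, with the group medians as lines and KO 8, KO 4 and WT 15 marked. The genotypes overlap for all 10 markers, and KO 8 and KO 4 are the 2 highest libraries for Tcf7l2, Lef1, Tnnt1 and Slc17a6.

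Other genes of thalamus and habenula were read from 15 and 13 named genes that are not among the 10. KO 8 was the highest of 23 libraries for 10 of the 15 thalamus genes and for 4 of the 13 habenula genes. The share among all genes tested was 22.1%, which leaves out Gbx2 and Shox2, too low in counts to be tested. KO 8 was the lowest for Lhx9 (7.26 CPM, against at least 15.0 elsewhere), Nwd2 (16.5 against at least 27.5) and Nr4a2 (15.0 against at least 35.7). It was the lowest for 23.6% of all genes tested. Foxp2, a forkhead transcription factor, was at 27.4 CPM in KO 8 against at most 9.79 CPM in the others. Gbx2, a homeobox gene of the developing thalamus, was at 3.54 CPM in KO 8 and at most 0.539 CPM elsewhere. Beside these, the hypothalamus markers were highest in KO 8 for 15 of 15 genes, and the part of these in the marker levels of KO 8 was not tested.

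KO 4 had a different set. Leaving KO 8 aside, it was the highest of 22 libraries for 3 of the 15 thalamus genes and 4 of the 13 habenula genes. The share among all genes tested was 3.1%. The leading genes include Shox2, Pou4f1, Chrnb3 and Chrna3, which were too low in counts to be among the genes tested. Shox2, a homeobox gene, was at 6.53 CPM in KO 4 and 10.8 CPM in KO 8, and at most 0.683 CPM in the other 21 libraries. Pou4f1, the transcription factor also known as Brn3a and a marker of habenular neurons, reached 1.03 CPM in KO 4 on 19 counts and at most 0.180 CPM elsewhere. The nicotinic receptor subunits Chrnb3 at 5.23 CPM and Chrna3 at 5.55 CPM were also highest in KO 4, at 13.4 and 10.4 times their medians. In the same library Tac2 (2.01 CPM), Prkcd (23.9 CPM) and Gng8 (8 counts) lay within the WT range, and Gbx2 had 4 counts (0.218 CPM). Some habenula genes were below their medians in KO 4, such as Gpr151 at 0.544 CPM, rank 21 of 23 from the top, Slc5a7 at 0.381 CPM and Nwd2 at 37.6 CPM. The dentate sum in KO 4, 488 CPM, lay within the range of the other libraries outside KO 8, and Slc17a7 was at 1058 CPM. Pomc, a hypothalamic neuropeptide precursor, was at 7.95 CPM in KO 4, 52.6 CPM in KO 8 and at most 2.18 CPM in the others.

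WT 15 was highest for yet other genes. Leaving KO 8 aside, it was the highest of 22 libraries for 6 of the 15 thalamus genes and 5 of the 13 habenula genes. The share among all genes tested was 6.63%. The leading genes include Gbx2, Chat, Slc5a7 and Slc18a3, which were too low in counts to be among the genes tested. The other thalamus genes of WT 15 summed to 710 CPM, the second highest of 23 libraries, against 604 CPM in KO 4. Zic1 alone gave 141 CPM of the sum in WT 15 and 13.6 CPM of that in KO 4, and without Zic1 the order of these libraries turns. WT 15 led the 23 libraries for Zic1, Zic4 at 18.8 CPM, and the cholinergic genes Chat at 6.24, Slc5a7 at 12.8 and Slc18a3 at 3.14 CPM. Its striatum markers summed to 241 CPM, the second highest of 23, where WT ranged from 142 to 259 CPM. Pou4f1 had 0 counts in WT 15, and Shox2 was at 0.269 CPM.

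**Figure D3:**
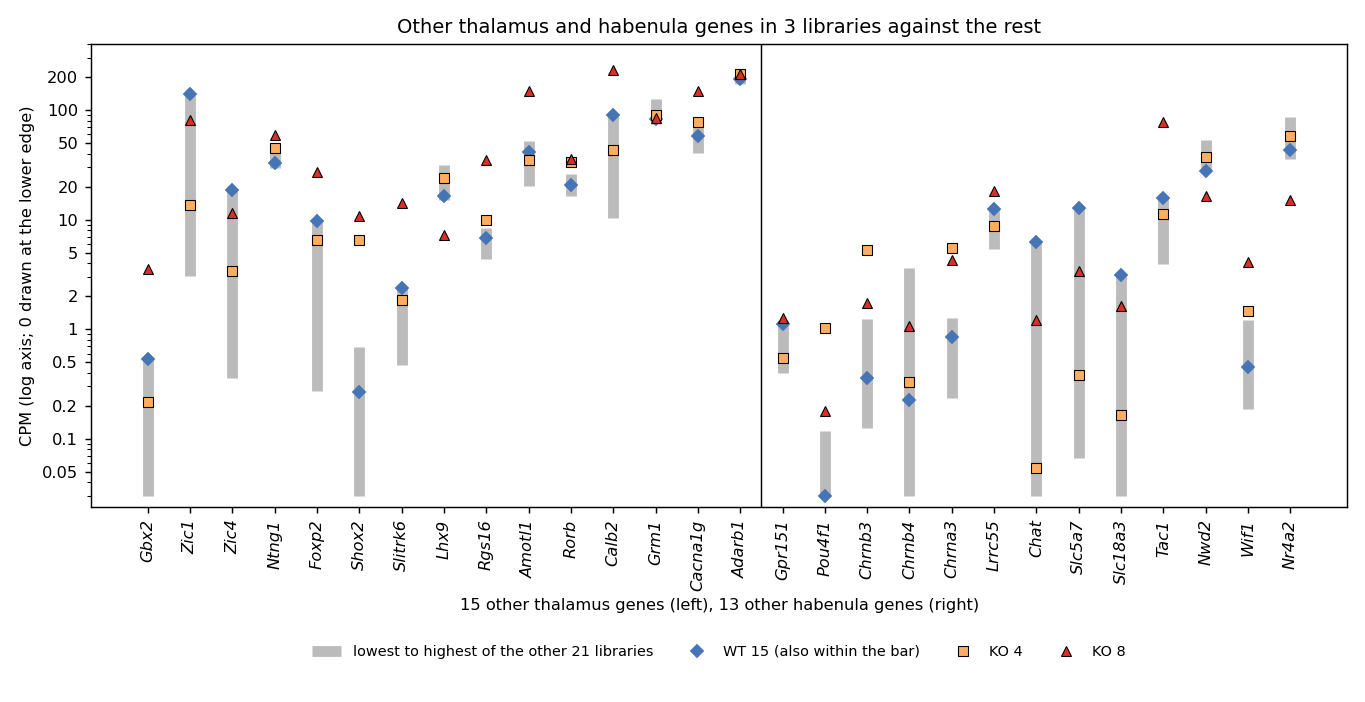
CPM on a log axis of the 15 other thalamus genes and 13 other habenula genes in KO 8, KO 4 and WT 15 (symbols), with bars from the lowest to the highest of the 21 libraries other than KO 4 and KO 8, and 0 drawn at the lower edge. Shox2 is above the bar in KO 8 and KO 4, Pou4f1, Chrnb3 and Chrna3 are highest in KO 4, and Zic1 and Chat in WT 15.

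To ask which markers rise together, Pearson's r of log2 CPM was computed for the 45 pairs of markers over the 22 libraries other than KO 8, with permutation p-values adjusted by Benjamini-Hochberg over the 45 pairs. Of these, 27 had r above 0, and the median r was 0.07. Only Tcf7l2 and Lef1 passed the threshold, with r = 0.64, permutation p = 0.00059 and adjusted p = 0.0265. Spearman's rho was 0.47, with permutation p = 0.0302 and adjusted p = 0.227. Without the 2 libraries farthest from the median, WT 17 and KO 4, r was 0.37 with permutation p = 0.109, so the relation rests on those libraries. Leaving out each library in turn, the pair lost the threshold without WT 17, KO 4, KO 12 or KO 22. Within genotypes r was 0.47 in WT and 0.71 in the 10 KO libraries.

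Of the 45 pairs, 10 had an unadjusted permutation p below 0.05. Tcf7l2 and Tnnt1 had r = 0.56, which was 0.03 without KO 4. Tcf7l2 and Synpo2 had r = 0.51 (adjusted p = 0.184) and rho = 0.51 (adjusted p = 0.227), with r = 0.60 without WT 17 and KO 4 and r = 0.41 without WT 20 and KO 22. Tac2 and Slc17a6 had r = 0.47, and Tcf7l2 and Slc17a6 had r = 0.44, which was 0.26 without KO 4; neither passed, with adjusted p = 0.184. Tnnt1 and Ramp3 had r = 0.45 and rho = 0.60, with adjusted p = 0.184 and 0.173, and r was 0.48 to 0.52 without the farthest libraries. Ramp3 and Gng8 ran in opposite directions, with r = -0.46 and adjusted p = 0.184, and r = -0.17 without WT 17 and KO 18. With KO 8 included, 14 pairs passed and the median r was 0.29. Of those 14 pairs, 10 were among the 15 pairs of the 6 markers high in KO 8, and 0 involved Prkcd or Gng8. The 6 were picked by their levels in KO 8, so adding that library lifts r among them, and this count is no test.

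**Figure D4:**
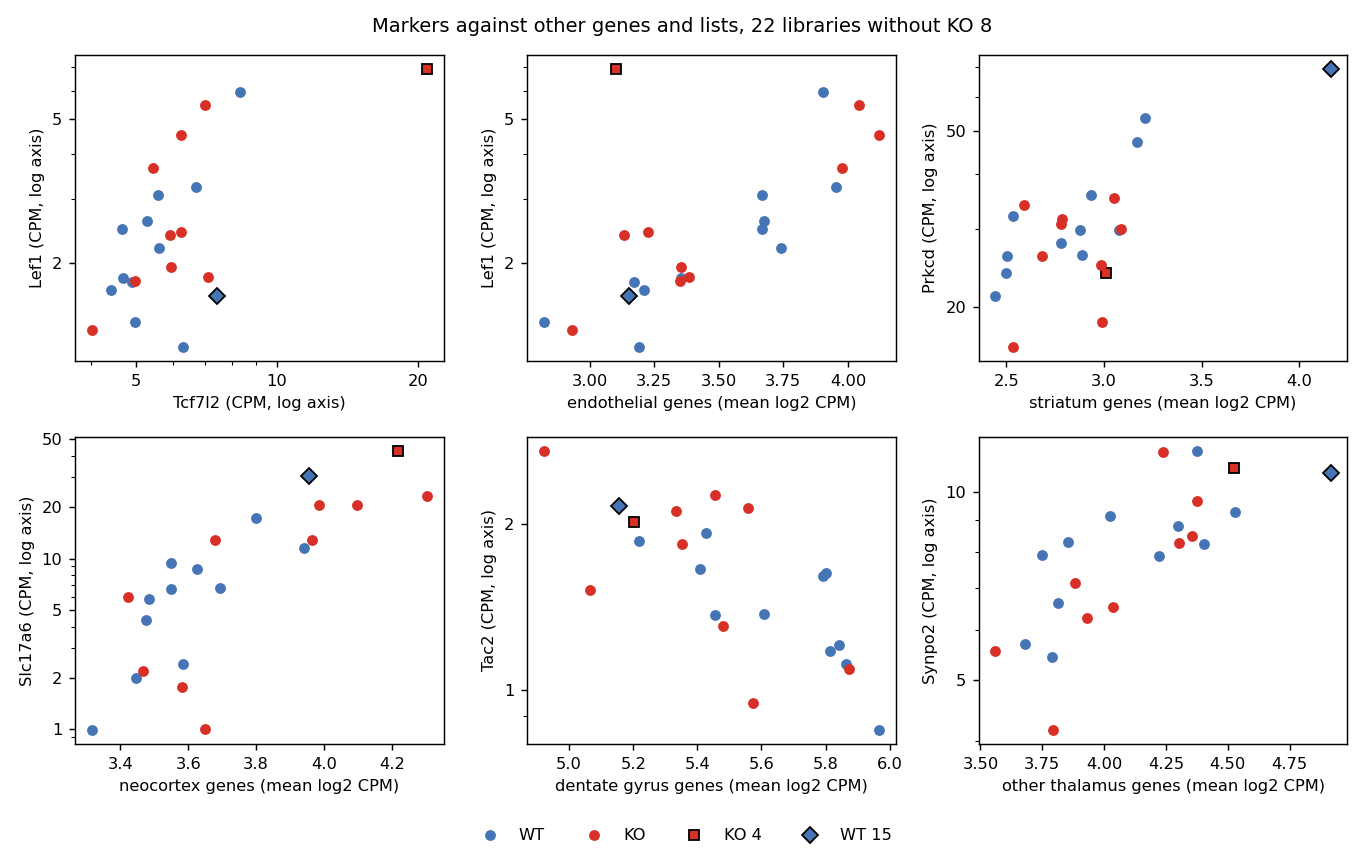
The plot shows 6 relations over the 22 libraries other than KO 8, each point 1 library coloured by genotype, with KO 4 and WT 15 marked: a marker's CPM on a log axis against Tcf7l2 (CPM, log axis) or against the mean log2 CPM of a gene list. KO 4 lies away from the other libraries for Lef1 against endothelial genes, WT 15 is at the upper end for Prkcd against striatum genes, and Tac2 runs against the dentate genes.

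Each marker was also set against the mean log2 CPM of 17 lists of region, cell type and pathway genes over the same 22 libraries. Of these 170 relations, 18 passed a permutation test with Benjamini-Hochberg adjustment over all 170. Slc17a6 ran with the neocortex list at r = 0.80 (rho = 0.83, adjusted p = 0.0034, the smallest p that 100000 permutations can give being 1e-05). The relation held within WT (r = 0.85) and within KO (r = 0.80), and without the 2 farthest libraries (r = 0.75). Slc17a6 also ran with the other habenula list (r = 0.64, adjusted p = 0.0167), of which 6 tested genes (Gpr151, Lrrc55, Tac1, Nwd2, Wif1 and Nr4a2) entered, the striatum list (r = 0.63, adjusted p = 0.0141) and the CA1 list (r = 0.61, adjusted p = 0.0254). The relation to the other thalamus list is not among those that passed. Foxp2 and Rorb are on both the neocortex list and the other thalamus list. The neocortex list also holds Tshz2, the gene whose levels were most like those of Slc17a6 (r = 0.89). The relation without these genes was not tested.

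Tac2 ran against the dentate granule cell list, with r = -0.73, rho = -0.76 and permutation p = 0.00016, adjusted to 0.00907 over the 170 relations. It ran with the interneuron list at r = 0.70 and adjusted p = 0.011, in WT (r = 0.67) and in KO (r = 0.73). It also ran with the list of genes related to the markers by family or as partners (r = 0.67, rho = 0.71, adjusted p = 0.0141). Synpo2 ran with the other thalamus list at r = 0.76, rho = 0.78 and adjusted p = 0.00425, in WT (r = 0.76) and KO (r = 0.84). It ran in the same direction with astrocyte (r = 0.69), mature oligodendrocyte (r = 0.60) and oligodendrocyte precursor (r = 0.59) lists, and against the CA3 list (r = -0.66). Which of these lists the Synpo2 level followed apart from the others was not tested.

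Prkcd ran with the striatum list (r = 0.71, adjusted p = 0.0119) and the other thalamus list (r = 0.63, adjusted p = 0.0198). Within WT r was 0.88 and 0.86, and within KO 0.18 and 0.21; the difference between genotypes was not tested. Without WT 1 and WT 15, the 2 farthest libraries, r with the striatum list was 0.47. Tcf7l2 ran with the neocortex list (r = 0.59, adjusted p = 0.0278), but not without KO 4 (r = 0.49, adjusted p = 0.127). Tnnt1, Ramp3, Plekhg1 and Gng8 had 0 relations that passed.

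Over the 22 libraries, Lef1 ran with endothelial markers at r = 0.66, rho = 0.66 and adjusted p = 0.0141, and with pericyte and smooth muscle markers at r = 0.64, rho = 0.75 and adjusted p = 0.0167. Without KO 4 as well as KO 8, r with the endothelial list was 0.87. Choroid plexus markers split the libraries into separate clusters, so no pooled r is given, although the pooled relation is among the 18. WT 14, WT 17, KO 2, KO 6 and KO 12 had a mean choroid level between 5.60 and 8.33 on the log2 scale, and the other 17 libraries were at or below 3.13. Lef1 was between 3.25 and 5.96 CPM in those 5 libraries, and between 1.16 and 6.91 CPM, with a median of 1.82, in the 17. Within the 17, r of Lef1 with the choroid level was 0.063 (permutation p = 0.794) and rho was -0.098 (permutation p = 0.708). The 17 cover low choroid levels only, so these values cannot show whether Lef1 follows the choroid level beyond them. The 5 libraries also held the highest endothelial levels, 3.90 to 4.12 on the log2 scale against at most 3.74 in the 17. Within the 17, r of Lef1 with the endothelial list was 0.30 (permutation p = 0.247) with rho = 0.50 (permutation p = 0.0416), and r with the pericyte and smooth muscle list was 0.46 (permutation p = 0.0656) with rho = 0.66 (permutation p = 0.00437). When KO 4 was left out too, r was 0.73 (permutation p = 0.00171) and 0.66 (permutation p = 0.00569). Without the 2 libraries farthest from the median of each list, r was 0.28 (permutation p = 0.308) and 0.31 (permutation p = 0.264). The rho values were then 0.475 (permutation p = 0.0764) and 0.55 (permutation p = 0.0363). These p-values were not adjusted.

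The genes whose levels were most like each marker's, by Pearson's r of log2 CPM over the 22 libraries among 14863 tested genes with a mean of at least 1 CPM, are a description with no test. For Slc17a6 they were Tshz2 (r = 0.89), Nts (r = 0.87) and Astn2 (r = 0.86). For Tcf7l2 they were Tal1 (r = 0.82), Ptprm (r = 0.75) and Hs3st3b1 (r = 0.75). Tal1, a transcription factor, was at 8.27 CPM in KO 4 against a median of 1.25 CPM, and its r was 0.30 without KO 4. That of Hs3st3b1 was 0.48 without KO 4. For Lef1 they were Alpl (r = 0.82), Arhgef5 (r = 0.81) and Bcam (r = 0.81), and for Prkcd Cacng5 (r = 0.86), C130074G19Rik (r = 0.84) and Igfbpl1 (r = 0.83). For Synpo2 they were Cdh19 (r = 0.89), Apod (r = 0.82) and Rnase4 (r = 0.81), and for Tac2 Vstm2l (r = 0.84), 1700037H04Rik (r = 0.80) and 1500009C09Rik (r = 0.80). For Plekhg1 they were Daam2 (r = 0.77), Oxsr1 (r = 0.74) and D7Ertd443e (r = 0.74), and for Ramp3 Gde1 (r = 0.74), Klc3 (r = 0.74) and Ostf1 (r = 0.73). For Tnnt1 they were Rnaseh2a (r = 0.73), Tmem189 (r = 0.69) and Cyp4f14 (r = 0.68), and for Gng8 Wscd1 (r = 0.71) and Vav2 (r = 0.68). The 10 markers themselves were left out of the search.

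Between genotypes, 0 of the 9 tested markers passed, with edgeR's quasi-likelihood test and Benjamini-Hochberg adjustment over 15828 genes, of which 0.0126% passed. Gng8 was below the filter on low counts. With no filter beyond 1 count its log2 fold change was -0.46 (edgeR adjusted p = 0.724), and -0.50 without KO 8 (edgeR adjusted p = 0.804). At an unadjusted p below 0.05, 5 of the 9 differed, against 5.74% of all genes: Tcf7l2, Tnnt1, Tac2 and Slc17a6 were higher in KO (3.41% of genes were) and Prkcd lower (2.34% were). DESeq2 and limma-voom also called 0 markers. At an unadjusted p below 0.05, DESeq2 gave Prkcd, Tnnt1 and Slc17a6, against 6.17% of all genes, and limma-voom gave Tcf7l2, Tnnt1 and Tac2, against 17.4%. The median log2 fold change of the 9 was 0.56, against 0.003 over all genes. It was 0.26 without KO 8, 0.075 without KO 4 and KO 8, a setting chosen after seeing the data, and 0.25 with DESeq2 on all 23 libraries. For 0 of the 10 markers were the genotypes free of overlap, as for 0.0126% of genes.

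Tac2 ran against the dentate list and Slc17a6 with the neocortex list, so both are given here. Without KO 8, 10 of 10 dentate genes were at lower values in KO, 4 of them at an unadjusted p below 0.05. In the same fit 7 of 11 neocortex genes were at higher values, 4 of them below 0.05 where 4.11% of all genes were, and the median summed level was 278 CPM in WT and 326 CPM in KO. No gene of either list passed edgeR's test with Benjamini-Hochberg adjustment, and the part of these regions in the marker values was not tested.

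The largest log2 fold change, KO over WT, was that of Slc17a6 at 2.0 (SE 0.738, derived from edgeR's F statistic, edgeR p = 0.0126). It was 0.69 (SE 0.578, edgeR p = 0.243) without KO 8, and 0.33 without KO 4 and KO 8. Tac2 was at 1.21 (SE 0.436, edgeR p = 0.0107), and at 0.26 (SE 0.178, edgeR p = 0.151) without KO 8. Tcf7l2 was at 0.89 (SE 0.341, edgeR p = 0.0149), at 0.37 (edgeR p = 0.103) without KO 8, and at 0.04 without KO 4 and KO 8. With all 23 libraries the size depended on the tool: Tac2 was at 0.25 with DESeq2 and 0.42 with limma-voom, Tcf7l2 at 0.34 and 0.48, and Slc17a6 at 2.01 and 1.0. Here limma-voom used quality weights per library and DESeq2 its default handling of outlier counts, so KO 8 need not weigh as in edgeR. Without KO 8, Tac2 was at 0.26 with DESeq2 too. The part of these settings in the sizes was not tested.

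Tnnt1 was at 0.57 (SE 0.226, edgeR p = 0.0179) and at 0.43 (SE 0.208, edgeR p = 0.0485) without KO 8, the only marker of 9 then below 0.05, where 4.11% of all genes were. Without KO 4 and KO 8 it was at 0.22, and 0 of 9 markers were below 0.05, against 3.1% of genes. Lef1 was at 0.56 (SE 0.303), and at 0.42 without KO 8. The Prkcd values were at -0.40 (SE 0.181, edgeR p = 0.0389), at -0.37 (SE 0.193, edgeR p = 0.0654) without KO 8 and at -0.36 without KO 4 and KO 8. It was -0.26 without WT 15, and without KO 4 and KO 8 the medians were 29.8 CPM in WT and 30.1 CPM in KO. Ramp3 was at 0.19, and at 0.095 without KO 8; Plekhg1 was at -0.07, and at -0.11 without KO 8. Synpo2 was at 0.17 and turned to -0.07 without KO 8. The adjusted p of the 9 markers lay between 0.781 and 0.861, and between 0.967 and 0.976 without KO 8, by edgeR with Benjamini-Hochberg adjustment.

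**Figure D5:**
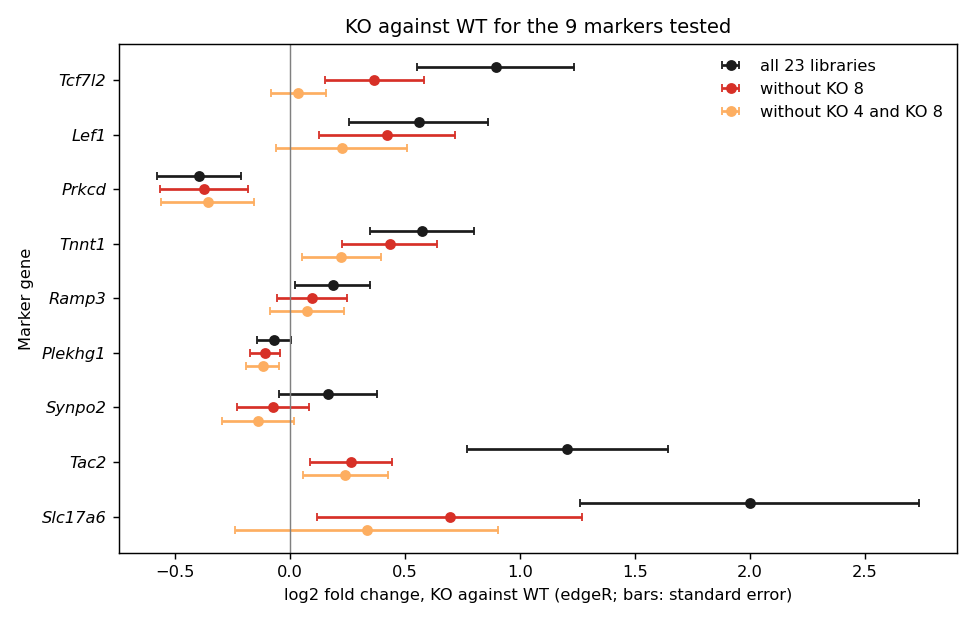
Log2 fold change of the 9 tested markers, KO over WT, from edgeR, with the standard error as bars, for all 23 libraries, without KO 8, and without KO 4 and KO 8. Slc17a6 moves from 2.0 to 0.69 and 0.33, Tac2 from 1.21 to 0.26 and Tcf7l2 from 0.89 to 0.37 and 0.04.

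Genes of the wider pathways showed 0 called members by edgeR with adjustment over all genes, with or without KO 8. Their counts at an unadjusted p below 0.05 stand against the 5.74% of all genes with KO 8 and 4.11% without it. Of 13 tested other thalamus genes, 8 were at higher values in KO, the median log2 fold change was 0.25, and 3 (Slitrk6, Rgs16 and Rorb) had an unadjusted p below 0.05. Without KO 8, 6 were higher, the median was -0.02 and 1 (Rorb) was below 0.05. Of 6 tested other habenula genes, 4 were at higher values in KO, with a median of 0.07 and 1 (Tac1) below 0.05; without KO 8, 3 were higher and 0 were below 0.05. Of 28 tested genes related to the markers by family or as partners, 16 were at higher values in KO, with a median of 0.07 and 3 below 0.05 (Tnnt2, Tac1 and Tacr3). Without KO 8, 16 were higher, with a median of 0.04 and 2 below 0.05 (Tnnt2 and Gng13). Of 38 tested Wnt pathway genes, 18 were at higher values in KO, with a median of -0.0068 and 4 below 0.05 (Dvl2, Fzd5, Rspo1 and Lgr4). Without KO 8, 17 were higher, with a median of -0.0039 and 4 below 0.05 (Dvl2, Rspo2, Rspo3 and Lgr4).

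Among partners of the markers, Tacr3, the receptor for neurokinin B, was at 18.6 CPM in KO 8, 6.64 CPM in KO 4 and at most 5.07 CPM in the other 21 libraries. Calcr, the calcitonin receptor that Ramp3 can join, was at 34.9 CPM in KO 8 and at most 2.11 CPM elsewhere. Tac1, the precursor of substance P, was at 77.2 CPM in KO 8 and between 3.91 and 15.6 CPM in the other 22. Among genes of the Wnt pathway, Axin2, a common target of beta-catenin, was at 26.5 CPM in KO 8 and 25.9 CPM in KO 4, within the 19.5 to 28.7 CPM of the other libraries. Lgr5, a receptor for R-spondins, was at 6.06 CPM in KO 8 and 4.25 CPM in KO 4, above the 2.89 CPM that bounded the others. Tcf7 and Tcf7l1, the other members of the Tcf and Lef family, were at 1.74 and 4.02 CPM in KO 8 and at 1.36 and 3.43 CPM in KO 4, within the range of the other 21 libraries.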

How the data were processed

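The values are estimated counts for each gene in 23 libraries, as the authors deposited them in 1 table, and 24.6% to 27.2% of non-zero values per library were fractional. Per the submitters' processing notes, bcl2fastq, STAR and mm10 were used; the counting program, its use of strand and the annotation are not given in the sources used here. Columns were matched by library name, and 0 were unmatched. Symbols were found for 45143 of 45706 genes, and positions came from GENCODE M21 on GRCm38. After rounding, edgeR 4.0.16 (R 4.3.3) was run with filterByExpr by genotype, TMM scaling and its robust quasi-likelihood F test, with Benjamini-Hochberg adjustment over all genes tested and a threshold of 0.05. The SE of an edgeR fold change was derived as its absolute value over the square root of the F statistic. CPM used TMM library sizes, and log2 CPM a prior count of 2. Correlations used 100000 two-sided permutations in scipy 1.17.1. Alternatives were DESeq2 1.42.0 at its default settings, limma-voom 3.58.1 with quality weights per library, other scalings and filters, and leaving out libraries. The statistics were tested on simulated data. The named genes were the 10 markers in every library, the 3 genes most correlated with each over 22 libraries (1 of those for Gng8 is not reported here), list genes by counts and medians with those a result turned on, and Ins2. The markers and lists were chosen with earlier results of these data known. Genes in more than 1 list were kept in each.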

Additional observations from a re-analysis of the deposited data

Results flagged for a closer look

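Among the 10 KO libraries other than KO 8, Tcf7l2 in KO 4 (20.9 CPM) stood apart from the others: its gap to the next library was 0.657 of the whole range of log2 CPM. Plekhg1 in KO 2 (15.7 CPM) stood below the others by 0.595 of the range. The highest and lowest values of 10 markers were examined, and chance sets a library apart in about 1 of 20 groups.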

How the results depend on the processing

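No marker was called under any of 318 alternative fits of single markers, and Synpo2 was the only marker whose fold change turned over, to -0.016 with voom, -0.073 without KO 8 (the lowest with 1 library left out, the highest being 0.24 without KO 22) and -0.14 without KO 4 and KO 8. No paired analysis was possible because no replicate number occurs in both genotypes. Genes called numbered 2, against 4 with DESeq2 (3 higher, 1 lower), 5 with voom (2 higher, 3 lower) and 1 with a mean of at least 50 counts. Leaving out each of the 23 libraries in turn gave 2 to 3. Without KO 8 the count was 2, against 3 with DESeq2, 4 with voom and 1 with at least 50 counts. Pairs of markers that passed numbered 1, against 14 with all 23 libraries, 0 in WT alone, 0 in KO alone, 0 by Spearman's rho, 0 centred within genotype, 0 without KO 4 and KO 8, and 0 to 1 leaving out each library. Relations with lists that passed numbered 18, against 15 by Spearman's rho, 24 without KO 4 and KO 8 and 19 centred within genotype. These 3, and every setting without KO 4 and KO 8, were chosen after seeing the data. Libraries with at least 3 high markers numbered 2, or 3 at 1.5 times the median. With each library left out in turn, Slc17a6 ranged from 0.69 to 2.36, Tac2 from 0.26 to 1.30 and Tcf7l2 from 0.37 to 0.98. The cause of these shifts was not tested. Low counts limit Gng8 and Tnnt1.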
